A study of Mus musculus with 12 samples.

Results

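The 4 Hox clusters of the mouse were examined in reduced representation bisulfite sequencing data, which measure cytosine methylation in short, CpG-rich fragments cut with the enzyme MspI. The clusters were taken as 4 windows of the mm9 build: Hoxa at chr6:52100000-52220000, Hoxb at chr11:96050000-96240000, Hoxc at chr15:102745000-102870000 and Hoxd at chr2:74497000-74607000. They hold 38 of the Hox genes and 17507 of the 8119606 cytosines listed, with 4833 in Hoxa, 4374 in Hoxb, 3486 in Hoxc and 4814 in Hoxd. Cut into tiles of 1 kb, they take up 277 of 309472 tiles with a listed cytosine. The members were chosen by position, with earlier results of these data known.

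Hox genes encode homeodomain transcription factors that give cells their position along the body axis. Within a cluster the genes lie in the order in which they act from head to tail, so that anterior genes (paralog groups 1 to 3) sit at one end, central genes (4 to 8) between and posterior genes (9 to 13) at the other. In embryonic stem cells the clusters are held silent by Polycomb proteins, and their CpG islands are known for carrying histone marks rather than DNA methylation. Whole embryos and brains hold mixtures of cells with different active Hox genes.

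There was 1 library for each of 12 groups. Androgenetic haploid embryonic stem cells (ahESCs), whose genome comes from the father, parthenogenetic haploid embryonic stem cells (phESCs), whose genome comes from the mother, and diploid embryonic stem cells (ESCs) were sequenced at an early and a late passage each and carry the label wild type (WT). Whole embryos of embryonic day E15.5 were WT, bimaternal (BM, from a phESC placed in an oocyte) or bipaternal (BP, from an ahESC and a sperm placed in an oocyte without its nucleus). The brains came from BM animals at E19.5 and from adult BM and adult WT animals. Every BM and BP sample is labelled as a knockout of differentially methylated regions, without saying which, and neither the cell lines nor the number of animals per library is given in the sources used here. No group has a replicate, so libraries were joined by kind (early ESCs, late ESCs, embryos and brains, 3 libraries each). A p-value ranks a difference among those obtained by exchanging libraries or the signs of their differences. The libraries differ in genotype, cell type or passage, so it does not measure the spread between replicates of a condition. In a mixed tissue, fewer methylated cells and fewer methylated copies per cell cannot be told apart.

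Libraries covered 3773871 (BP embryo) to 5903648 (WT adult brain) cytosines, and 9678 (late phESCs) to 13410 (late ahESCs) within the Hox windows, where 6130 had a value in all 12. Read depth is unknown. The list holds cytosines of CG and, in near equal number, cytosines of GC outside a CG, which stood at 0.38 to 1.00% in the Hox windows and lower every mean over all listed cytosines. Sequence of chromosome Y that is not placed on the build has values in 4 libraries (late ahESC, late phESC, adult BM brain and adult WT brain), here termed the second library set, and none in the other 8, the first set. CCGG, the MspI site, made up 14.04 to 14.6% of the known Hox CpG cytosines in the first set, and 23.4, 2.50, 25 and 24.0% in the 4 libraries of the second set. Hox CpG cytosines had means of 7.21 to 17.2% at CCGG and 1.57 to 5.05% elsewhere, so a mean over all listed cytosines moves with this share. As a check of labels, the promoters of 5 germline genes were all higher in the 3 embryos than in the 3 early ESC libraries (Dazl 43.9% and 19.1%), and the promoter of Pou5f1, a pluripotency gene, stood at 1.10% in early ESCs, 5.31% in embryos and 10.6% in brains. Of the other pluripotency markers measured, Esrrb was lower in embryos and Tbx3 overlapped, and 3 were not measured. The promoters of Snrpn, Peg10 and Plagl1, which are methylated on the maternal copy, stood at 0.53 to 1.14% in the BP embryo and at 0.79 to 1.53% in early ahESCs, and also at 0.61 to 1.14% in early phESCs, so they do not tell the 2 haploid cell types apart.

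Promoter sequences show what the assay reads in these clusters. The 4 stretches below are the 250 bases before the start of the gene, 5′ to 3′ on its strand, from RefSeq on GRCm38.p6, chosen to show the range of CpG density and methylation among the members. Capitals mark each CG with a cytosine listed in the data. Hoxd1 (chr2:74762730-74762979, plus strand) is an anterior gene, Hoxa13 (chr6:52260881-52261130, minus strand) patterns the digits and the genital tubercle, Hoxa5 (chr6:52204588-52204837, minus strand) acts in the lung and the cervical skeleton, and Hoxd4 (chr2:74721728-74721977, plus strand) acts in the hindbrain and the cervical vertebrae.
Hoxd1: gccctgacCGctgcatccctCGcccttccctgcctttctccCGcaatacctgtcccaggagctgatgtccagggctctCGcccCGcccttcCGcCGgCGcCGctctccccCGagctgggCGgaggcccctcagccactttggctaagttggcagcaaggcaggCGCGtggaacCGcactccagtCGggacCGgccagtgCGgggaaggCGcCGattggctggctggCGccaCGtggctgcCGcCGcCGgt
Hoxa13: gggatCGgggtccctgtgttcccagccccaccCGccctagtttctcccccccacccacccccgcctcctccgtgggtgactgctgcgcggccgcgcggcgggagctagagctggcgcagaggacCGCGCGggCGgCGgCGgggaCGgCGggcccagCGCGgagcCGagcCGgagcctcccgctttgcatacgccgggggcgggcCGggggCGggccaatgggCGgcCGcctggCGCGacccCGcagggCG
Hoxa5: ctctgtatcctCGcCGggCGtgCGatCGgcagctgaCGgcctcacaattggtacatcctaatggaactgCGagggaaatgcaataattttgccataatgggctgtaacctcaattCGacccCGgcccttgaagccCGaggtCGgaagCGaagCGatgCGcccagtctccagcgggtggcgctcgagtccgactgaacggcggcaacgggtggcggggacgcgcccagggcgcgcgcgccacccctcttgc
Hoxd4: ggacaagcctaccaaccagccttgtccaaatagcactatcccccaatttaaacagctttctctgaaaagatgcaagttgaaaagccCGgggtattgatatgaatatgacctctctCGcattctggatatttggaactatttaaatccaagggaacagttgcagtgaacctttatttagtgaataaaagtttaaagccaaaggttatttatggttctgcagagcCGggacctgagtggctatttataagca

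Of the 38 members, 22 had a RefSeq promoter, Hoxa10 and Hoxd11 having 2 each, and all 24 promoters held a CG in these 250 bases, with a median of 12.5 CG, against 92.1% of 32851 RefSeq promoters of the same length and a median of 6. CCGG, a palindrome that reads the same on both strands and contains one CG, was in 75% of the member promoters and in 47.1% of all. Hoxd1 has 24 CG in its stretch and all 24 were listed; the mean of their 48 cytosines ran from 0.49% in late phESCs to 3.67% in the adult WT brain. Hoxa13 has 35 CG, 22 of them listed, and ran from 0.58% in late phESCs to 4.52% in late ahESCs. Hoxa5 has 28 CG, 14 of them listed, at 2.61, 1.54 and 1.44% in early ahESCs, phESCs and ESCs, 6.62, 2.10 and 1.80% in the late libraries in the same order, 9.88, 9.02 and 4.69% in WT, BM and BP embryos, and 12.5, 7.45 and 14.02% in the BM E19.5, BM adult and WT adult brains. At Hoxa5 each embryo and each brain lay above each early ESC library. Hoxd4 has 3 CG, 2 of them in CCGG, and 3 libraries, all of the second set, had values there: 37.0% in late ahESCs, 16.7 and 17.9% in the BM and WT adult brains.

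The Hox clusters were sparsely methylated in every library and lay below the other listed cytosines in all 12. Over all 4 clusters the mean was 4.38, 2.997 and 3.81% in early ahESCs, phESCs and ESCs, 4.44, 1.84 and 1.72% in the late libraries, 3.47, 3.50 and 2.18% in WT, BM and BP embryos, and 2.51, 2.81 and 3.88% in the BM E19.5, BM adult and WT adult brains. All other listed cytosines had means of 4.24 to 16.6%, lowest in late phESCs and highest in the adult WT brain. Minus the mean of the other cytosines, Hoxa stood at −8.93 points, Hoxb at −7.97, Hoxc at −8.56 and Hoxd at −8.88, lower in 12 of 12 libraries each (two-sided exact sign-flip permutation test over 12 libraries, adjusted p = 0.000488 for each cluster, the smallest it can give). Against the other cytosines in tiles with at least 40 listed positions, a comparison chosen after the data were seen, the gaps were 4.53, 3.57, 4.16 and 4.49 points, with the same adjusted p in the exact test.

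The gap was wider in embryos and brains than in ESCs. It went from 5.78 points below in ESCs to 12.1 below in embryos and brains for Hoxa, from 4.71 to 11.2 for Hoxb, from 4.97 to 12.1 for Hoxc and from 5.42 to 12.3 for Hoxd (two-sided exact permutation test of 6 against 6 libraries, adjusted p = 0.00216 for each cluster, the smallest it can give). The other listed cytosines moved, with means of 10.8% ± 2.77 (SD, n = 3) in early ESCs, 6.12% ± 2.26 in late ESCs, 14.1% ± 0.27 in embryos and 15.9% ± 0.54 in brains. The Hox clusters together stood at 3.73% ± 0.70, 2.66% ± 1.54, 3.05% ± 0.75 and 3.07% ± 0.72 in the same order. Over all listed cytosines, Hox windows included, the highest ESC library (early ESCs) had 12.7% and the lowest embryo or brain (WT embryo) 13.8%. The tests of the 4 gaps share this shift, so they are not 4 separate results on the Hox clusters.

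**Figure D1:**
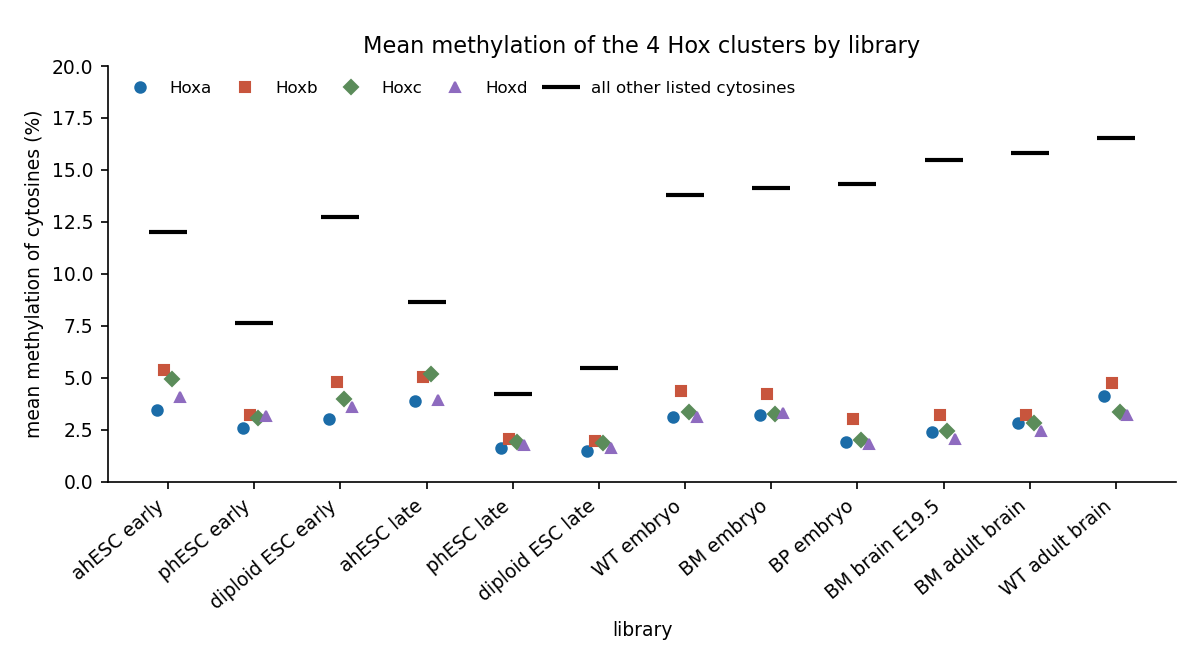
Mean methylation in percent (vertical axis) of all listed cytosines of each Hox cluster (coloured symbols) and of all other listed cytosines (black bars) in each of the 12 libraries (horizontal axis, 1 library per group). All Hox means lie between 1.49 and 5.36%, while the other cytosines run from 4.24 to 16.6%.

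No cluster mean differed between kinds of library past the threshold of 0.05. ESCs and the joined embryos and brains had Hoxa means of 2.68 and 2.94%, Hoxb 3.74 and 3.79%, Hoxc 3.49 and 2.88% and Hoxd 3.04 and 2.67% (exact permutation test, adjusted p 0.805 to 0.946). Early ESCs and embryos differed by 0.26 to 1.12 points, with embryos lower in each cluster (adjusted p 0.533 to 0.70, exact permutation test). This direction turned at CpG cytosines outside CCGG for Hoxa (0.397 points higher) and Hoxc (1.15 higher), and with 1 library left out for Hoxa. That setting also drops cytosines of unknown context, outside placed exons and RefSeq promoters. For the WT embryo and early diploid ESCs it kept 2841 cytosines measured in both, against 11661 over all listed ones. Embryos and brains differed by at most 0.36 points (adjusted p 1 for each, exact permutation test). With 3 against 3 libraries p cannot go below 0.1, and with 3 passage pairs not below 0.25. Between ESCs and the joined embryos and brains the direction turned for Hoxc at CpG cytosines outside CCGG, from 1.97% in ESCs to 3.13% in embryos and brains (exact permutation test, p = 0.0173 and adjusted p = 0.0693), a setting chosen after the data were seen.

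Among the clusters Hoxb stood highest. Over 12 libraries it averaged 3.77%, against 2.81% for Hoxa, 3.18% for Hoxc and 2.85% for Hoxd, and it lay above Hoxa by 0.96 points, above Hoxd by 0.915 and above Hoxc by 0.59 (two-sided exact sign-flip permutation test over the libraries, adjusted over 6 pairs, p = 0.00146, 0.00146 and 0.00293). Hoxc lay above Hoxd by 0.33 points (adjusted p = 0.00586, exact test), but this order turned over positions measured in all 12 libraries (Hoxc lower by 0.028 points), over tile means (by 0.51) and over CpG cytosines outside CCGG (by 0.40). Over tile means Hoxb lay above Hoxd by 0.61 points, which did not pass the threshold. Hoxa differed from Hoxc by −0.37 points (adjusted p = 0.0814) and from Hoxd by −0.042 points (adjusted p = 0.751), neither past the threshold of the exact test. The Hoxb window is the longest, at 190000 bp against 110000 to 125000 bp, and holds the gap between Hoxb13 and Hoxb9 described below. The part of this gap in the order of the clusters was not tested.

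Most Hox promoters, taken from 1000 bp before to 500 bp after the start, were sparsely methylated in every library. A start could be placed on mm9 for 34 of the 38 members; Hoxa3, Hoxc5, Hoxc9 and Hoxd10 had none, and Hoxb8 had no library with 5 measured cytosines. The promoter was measured in all 12 libraries for 28 members, and for Hoxa9, Hoxb3, Hoxb4, Hoxc8 and Hoxd4 in 10, 6, 7, 11 and 11 of them. Median levels per library ran from 0.81 to 3.15% in the anterior group, from 0.89 to 3.57% in the central group and from 0.78 to 2.75% in the posterior group. The late ahESC library, with 23.4% of its known Hox CpG cytosines at CCGG and 1.00% at cytosines of GC outside CG, gave the highest median in the central group (3.57%), and the adult WT brain gave it in the anterior (3.15%) and posterior (2.75%) groups. The part of these values in the result was not tested.

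In the anterior group, Hoxa2, which acts in the branchial arches, ran from 0.81% in late ESCs to 4.66% in the adult WT brain, and Hoxd3 from 0.43% in late phESCs to 2.17% in the adult WT brain. Hoxb1, a hindbrain gene, was the highest member of this group measured in all 12 libraries: it stood at 6.10, 3.70 and 4.76% in early ahESCs, phESCs and ESCs, 6.61, 2.90 and 1.95% in the late libraries, 5.81, 9.81 and 3.91% in WT, BM and BP embryos and 4.57, 3.14 and 3.31% in the BM E19.5, BM adult and WT adult brains. The BM embryo was the highest and late ESCs the lowest, and the kinds of library overlapped. At CpG cytosines outside CCGG alone, chosen after the data were seen, Hoxb1 had 16.3, 7.52 and 12.4% in early ESCs. In the same setting it had 11.0, 6.94 and 4.30% in the late libraries and 19.2, 27.7 and 9.17% in embryos. The brains had 8.46, 8.36 and 4.87% there. Hoxb3, also a hindbrain gene, was measured in 6 libraries over 6 to 25 cytosines, at 6.67% in early ahESCs, 5.67% in late ahESCs, 25.4% in the WT embryo, 11.1% in the BM embryo, and 3.08 and 5.09% in the BM and WT adult brains. The WT and BM embryos were the 2 highest of the 6 at Hoxb3, and the BP embryo had too few cytosines. Outside CCGG, over only part of these cytosines, Hoxb3 had 20% in early ahESCs and 3.94% in late ahESCs. The WT and BM embryos had 45.7 and 33.3% there, and the BM and WT adult brains 1.97 and 5.95%.

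In the central group Hoxd4 was the member with the highest promoter level. It stood at 27.5, 19.2 and 27.1% in early ahESCs, phESCs and ESCs, at 12.7% in late ahESCs and 14.98% in late ESCs, at 6.82, 9.03 and 3.42% in WT, BM and BP embryos, and at 2.80, 4.98 and 4.86% in the BM E19.5, BM adult and WT adult brains, over 19 to 55 cytosines. All 3 early ESC libraries lay above both late ESC libraries, and those above all embryos and brains. Late phESCs had too few cytosines there. Late ahESCs and both adult brains, of the second set, rest on 55 cytosines and the first-set libraries on 19 or 23. Across the sets the order therefore compares partly different cytosines, while within the first set it was the same. At the CG of the 250 bases before the start, only those 3 second-set libraries had values (37.0, 16.7 and 17.9%). At the CpG cytosines outside CCGG alone, chosen after the data were seen, the same promoter stood at 79.6, 49.4 and 75.6% in early ahESCs, phESCs and ESCs, at 31.8 and 41.2% in late ahESCs and ESCs, at 19.3, 21.9 and 11.3% in WT, BM and BP embryos, and at 4.56, 10.01 and 8.34% in the 3 brains. These values rest on only part of the 19 to 55 cytosines, and their number per library is not given here. The order of the kinds was the same, but a part of the same cytosines is no separate check. Hoxa5 ran the other way between ESCs and embryos, with 0.92, 0.87 and 0.72% in the early ESC libraries and 5.79, 4.204 and 1.61% in WT, BM and BP embryos, and it reached 8.58% in the adult WT brain. Hoxa6 stood at 6.34, 4.30 and 5.80% in early ESCs and at 2.35 to 5.13% in embryos. Hoxb4, known for its role in blood stem cells, was at 0 to 1.32% in its 7 libraries, and Hoxb5, Hoxb6, Hoxb7, Hoxa4 and Hoxd8 stayed under 4% in every library measured.

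In the posterior group, Hoxa9, also known from blood stem cells and leukaemia, had few cytosines (5 to 13) in 10 libraries. Its promoter stood at 14.5, 14.7 and 12.8% in early ahESCs, phESCs and ESCs, 6.36% in late phESCs, 7.63, 3.92 and 7.5% in WT, BM and BP embryos, and 4.51, 16.6 and 5.56% in the BM E19.5, BM adult and WT adult brains. The early ESC libraries lay above all embryos, and the adult BM brain, with 5 cytosines, lay above all other libraries. Hoxc10, a gene of the lumbar and hindlimb region, stood at 8.64, 4.39 and 6.36% in early ESCs, 6.34, 2.88 and 2.69% in late ESCs, 4.78, 4.43 and 4.57% in embryos and 4.75, 3.71 and 4.53% in brains. Hoxd12, a limb gene, stood at 5.58, 7.05 and 5.65% in early ESCs, 4.59, 3.08 and 3.08% in late ESCs, 3.17, 3.88 and 2.43% in embryos and 3.26, 2.90 and 3.19% in brains, with each early ESC library above all 9 others. Hoxa13, Hoxd13, Hoxc13 and Hoxa10, which act in the limbs, the hair and the urogenital tract, were under 4.5% in every library.

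**Figure D2:**
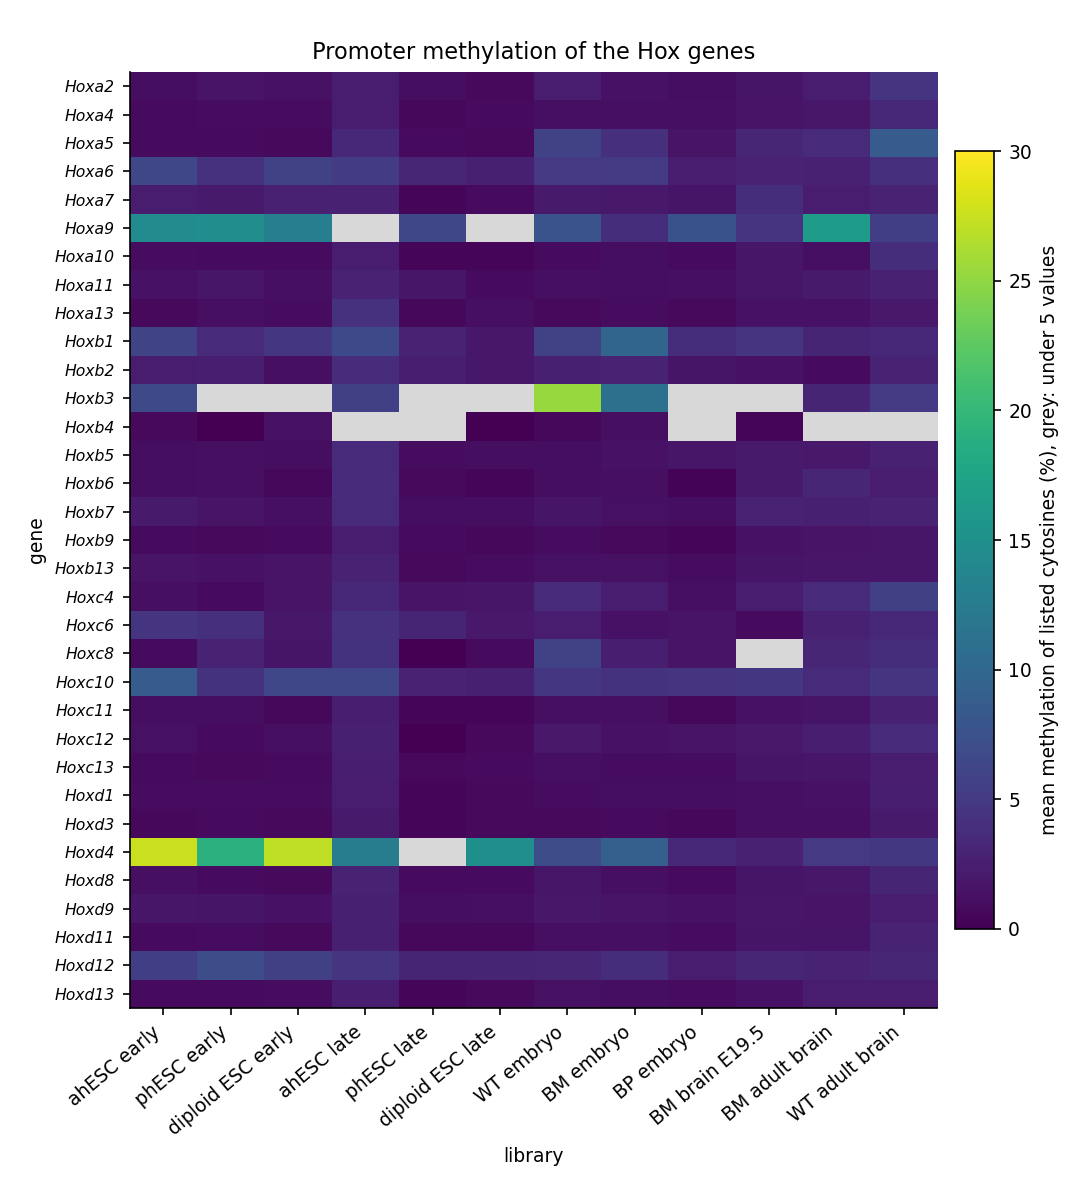
Mean promoter methylation in percent (colour) of each Hox gene with a placed start (rows, cluster by cluster, by paralog number within a cluster) in each library (columns); grey cells have fewer than 5 measured cytosines. Hoxd4 (27.5 to 2.80%) and Hoxa9 stand out in the early ESC columns, and Hoxb3 in the WT and BM embryo columns (25.4 and 11.1%).

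Between early ESCs and embryos, all 6 libraries of the first set, 31 member promoters were measured. In 5 of them (Hoxa4, Hoxa5, Hoxc12, Hoxc13 and Hoxd1) each embryo lay above each early ESC library, against 21.3% of all promoters measured, and in 5 (Hoxa7, Hoxa9, Hoxb13, Hoxd12 and Hoxd4) each embryo lay below, against 7.57% of all. From 500 bp before to 500 bp after the start the counts were 7 above and 4 below, with Hoxa11 and without Hoxa7 and Hoxa9 among the latter. Of these 10, only Hoxa5, Hoxa9 and Hoxd4 had kind means more than 3 points apart, at 0.84 and 3.87%, 13.99 and 6.35%, and 24.6 and 6.42%. With ESCs of both passages against embryos and brains, none of 28 members separated in either direction (6.93% and 0.121% of all promoters). Between early and late ESCs, a comparison added after the data were seen, none of 29 members was above (1.01% of all) and Hoxd12 was below (9.56% of all).

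Between embryos and brains, 17 of 30 member promoters had each brain above each embryo, against 28.2% of all promoters, and none had each brain below, against 1.47%. The differences were small, with a median of 0.86 points over the members and 0.47 over all promoters. The 17 were Hoxd1 and Hoxd3 in the anterior group, Hoxa4, Hoxa7, Hoxb5, Hoxb6 and Hoxb7 in the central group, and Hoxa10, Hoxa11, Hoxa13, Hoxb9, Hoxb13, Hoxc11, Hoxc12, Hoxc13, Hoxd11 and Hoxd13 in the posterior group. Hoxa10 stood at 0.92, 1.14 and 0.92% in WT, BM and BP embryos and at 1.79, 1.27 and 3.94% in the BM E19.5, BM adult and WT adult brains. Hoxd13, the most posterior Hoxd gene, stood at 1.34, 1.13 and 0.96% in embryos and 1.42, 2.37 and 2.26% in brains. The E19.5 BM brain is in the same library set as the embryos and, by the way the 17 were counted, lay above all 3 embryos at each of them; the 2 adult brains are of the second set. Cytosines of GC outside CG stood at 0.41 to 0.56% in the embryos and at 0.52, 0.49 and 0.83% in the 3 brains, and their part in these small differences was not tested.

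Exons reached members without a placed start, and 37 of the 38 had one; Hoxd10 had none. Hoxa3, which acts in the thymus and the parathyroid, had exon means of 10.2, 5.45 and 8.10% in early ahESCs, phESCs and ESCs, 7.71, 3.74 and 3.15% in the late libraries, 13.9, 16.7 and 8.57% in WT, BM and BP embryos and 4.01, 5.35 and 6.36% in the BM E19.5, BM adult and WT adult brains. Each embryo was above each brain at Hoxa3. Hoxb13, the most posterior Hoxb gene, had exons at 12.3, 7.48 and 11.2% in early ESCs, 5.99, 2.08 and 3.57% in late ESCs, 2.52, 2.76 and 2.05% in embryos and 3.22, 2.59 and 2.55% in brains, while its promoter never passed 2.83%. Each early ESC library was above all 9 others at the Hoxb13 exons. Hoxc5 had 1.38, 1.20 and 1.20% in early ESCs and 5.09, 5.19 and 3.66% in embryos, with each embryo higher. Hoxb3 exons were highest in the WT and BM embryos (8.09 and 6.51%), with 3.17% in the BP embryo. Hoxc9 stayed at 0.78 to 2.96% and Hoxb8 at 0.75 to 3.003% in all 12 libraries. Hoxc8 exons had values in late ahESCs (16.1%) and in the adult BM and WT brains (5.80 and 6.21%), all of the second set.

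Over all measured Hox tiles, those of promoters and exons included, the early ESCs and the embryos differed in both directions. Of 211 Hox tiles measured in the 3 early ESC and 3 embryo libraries, 54 had each embryo below each early ESC library (25.6%, against 4.48% of all tiles) and 28 had each embryo above (13.3%, against 39.1% of all tiles). With at least 10 points between the means, 14 were lower and 2 higher, the latter at chr11:96109001-96110000 and chr11:96110001-96111000. These counts describe the libraries and carry no test. Without the BP embryo the higher count was 61 and the lower count 60; all 6 belong to the first set.

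**Figure D3:**
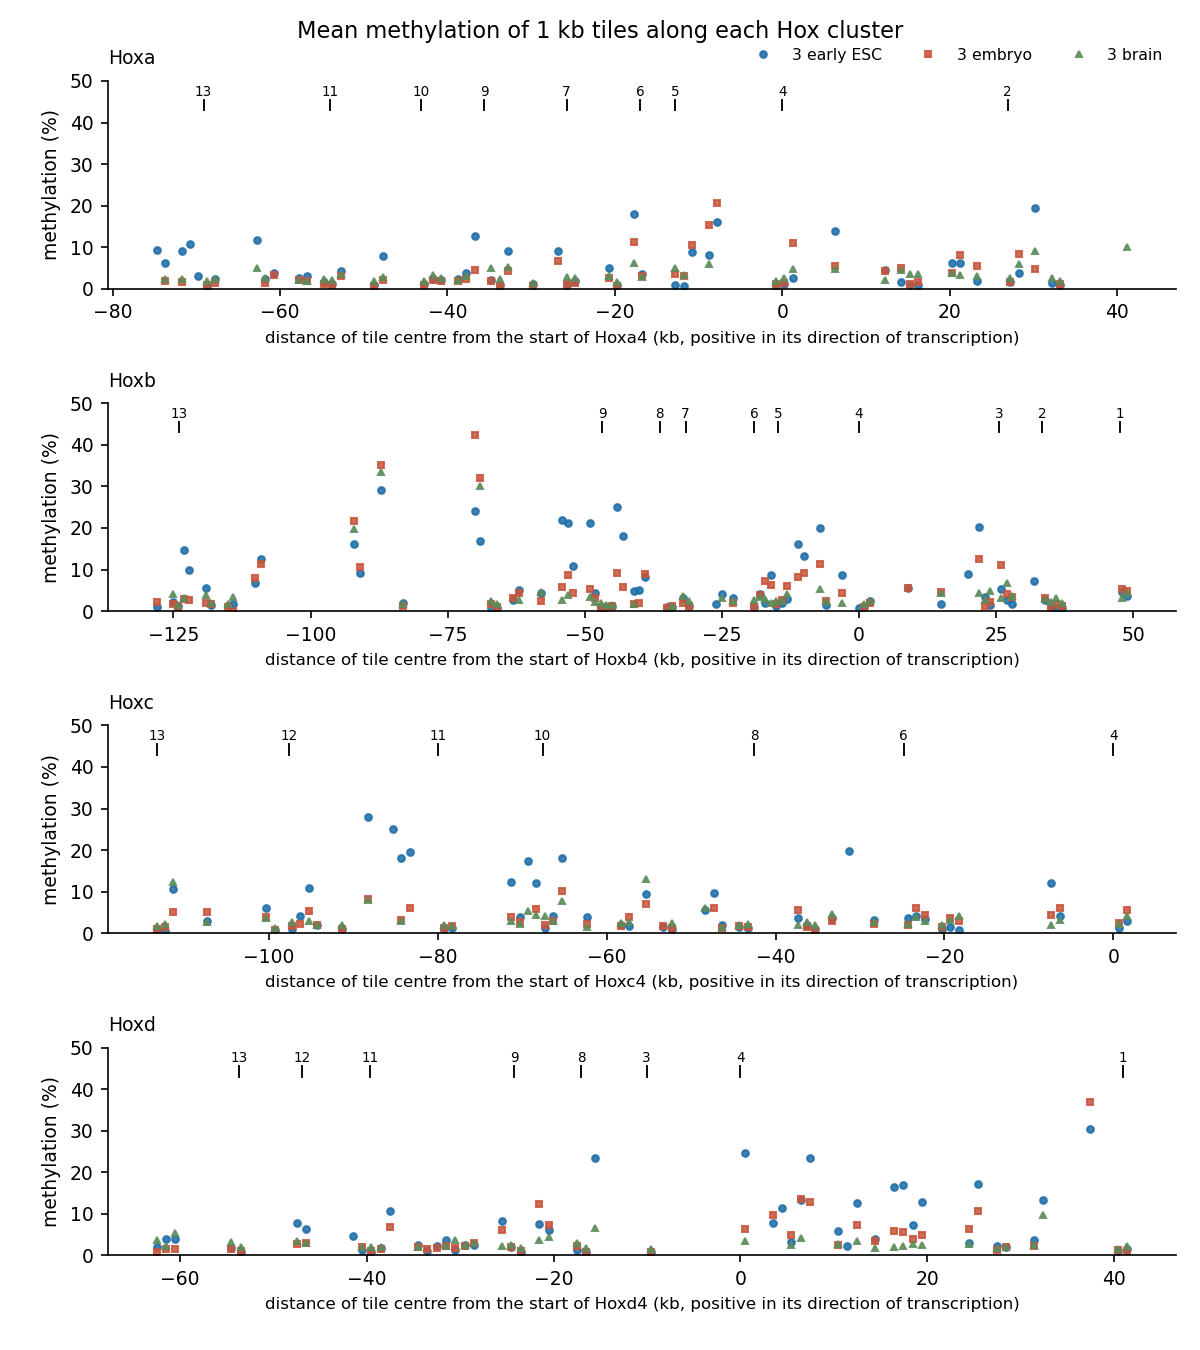
Mean methylation in percent (vertical axes) of 1 kb tiles against the distance in kb from the start of a named gene (horizontal axes), 1 panel per cluster, with points for the means of early ESCs, embryos and brains (3 libraries each). Most tiles lie near 0, with the highest embryo points in Hoxb near 40% and the highest early ESC points above those of embryos at several tiles.

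The 5 tiles with the largest differences between early ESCs and embryos lie in Hoxb, Hoxc and Hoxd. In Hoxc, chr15:102776001-102777000, 8.36 kb before the Hoxc11 start and with no placed exon, stood at 30.8, 19.3 and 34.0% in early ahESCs, phESCs and ESCs, 19.6, 8.70 and 12.1% in the late libraries, 8.40, 5.78 and 10.9% in WT, BM and BP embryos and 10.1, 5.78 and 8.07% in the BM E19.5, BM adult and WT adult brains. Each early ESC library was above each embryo and brain there. In Hoxd, the tile of the Hoxd4 start, chr2:74560001-74561000, which lies in a Hoxd4 exon, had the values of the Hoxd4 promoter in early ESCs and embryos. In Hoxb, chr11:96125001-96126000, 7.27 kb before the Hoxb9 start and in an exon of the long noncoding RNA gene Gm53, stood at 28.3, 10.3 and 27.3% in early ESCs, 16.97, 12.6 and 5.01% in late ESCs, 6.65, 8.29 and 2.33% in embryos and 1.497, 2.15 and 4.03% in brains. At 2.27 kb before the Hoxb9 start, chr11:96130001-96131000 followed the same order, with 27.04, 13.1 and 23.2% in early ESCs, 13.5, 7.36 and 9.34% in late ESCs, 5.52, 7.203 and 2.86% in embryos and 2.30, 3.18 and 4.79% in brains. The Hoxb9 promoter between them and the gene was at most 2.25% in any library.

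The tile among the 5 that was higher in embryos was chr11:96109001-96110000 in Hoxb, in the processed pseudogene Gm11539, 23.3 kb before the Hoxb9 start. It stood at 30.4, 8.97 and 32.8% in early ahESCs, phESCs and ESCs, 12.1, 9.09 and 6.86% in the late libraries, 43.8, 41.1 and 42.2% in WT, BM and BP embryos, and 41.1 and 47.4% in the BM E19.5 and WT adult brains. The neighbouring tile, chr11:96110001-96111000, stood at 21.4, 6.66 and 22.2% in early ESCs, 6.83, 6.77 and 3.27% in late ESCs, 31.3, 32.1 and 32.5% in embryos and 33.6, 27.8 and 29.0% in brains. In both tiles every embryo and brain measured lay above every ESC library. This gap between Hoxb13 and Hoxb9 also holds chr11:96092001-96093000, 36.9 kb after the Hoxb13 start, with 32.9, 19.52 and 35.2% in early ESCs, 14.96, 12.5 and 12.8% in late ESCs, 35.3, 33.9 and 36.5% in embryos and 36.6, 31.0 and 33.0% in brains, where early ESCs and brains overlapped.

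Over all 6 ESC libraries against the 6 embryo and brain libraries, 1 of 176 Hox tiles was higher (chr11:96110001-96111000, against 25.2% of all tiles) and 2 were lower (0.0832% of all tiles). The 2 lower ones were chr11:96130001-96131000, described above, and chr15:102780001-102781000, 4.36 kb before the Hoxc11 start. The latter, named after its values were seen, stood at 24.1, 10.5 and 19.9% in early ahESCs, phESCs and ESCs, 11.3, 7.35 and 4.88% in the late libraries, 3.75, 3.51 and 2.64% in WT, BM and BP embryos and 3.47, 2.41 and 3.10% in the BM E19.5, BM adult and WT adult brains. The lower count was 8 without late phESCs, 7 without late ESCs and 4 without the adult WT brain. Without late ahESCs, the ESC library with the highest level at cytosines of GC outside CG (1.00%), the higher count was 20; it was 5 without the adult BM brain and 2 without the BP embryo or the E19.5 BM brain.

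**Figure D4:**
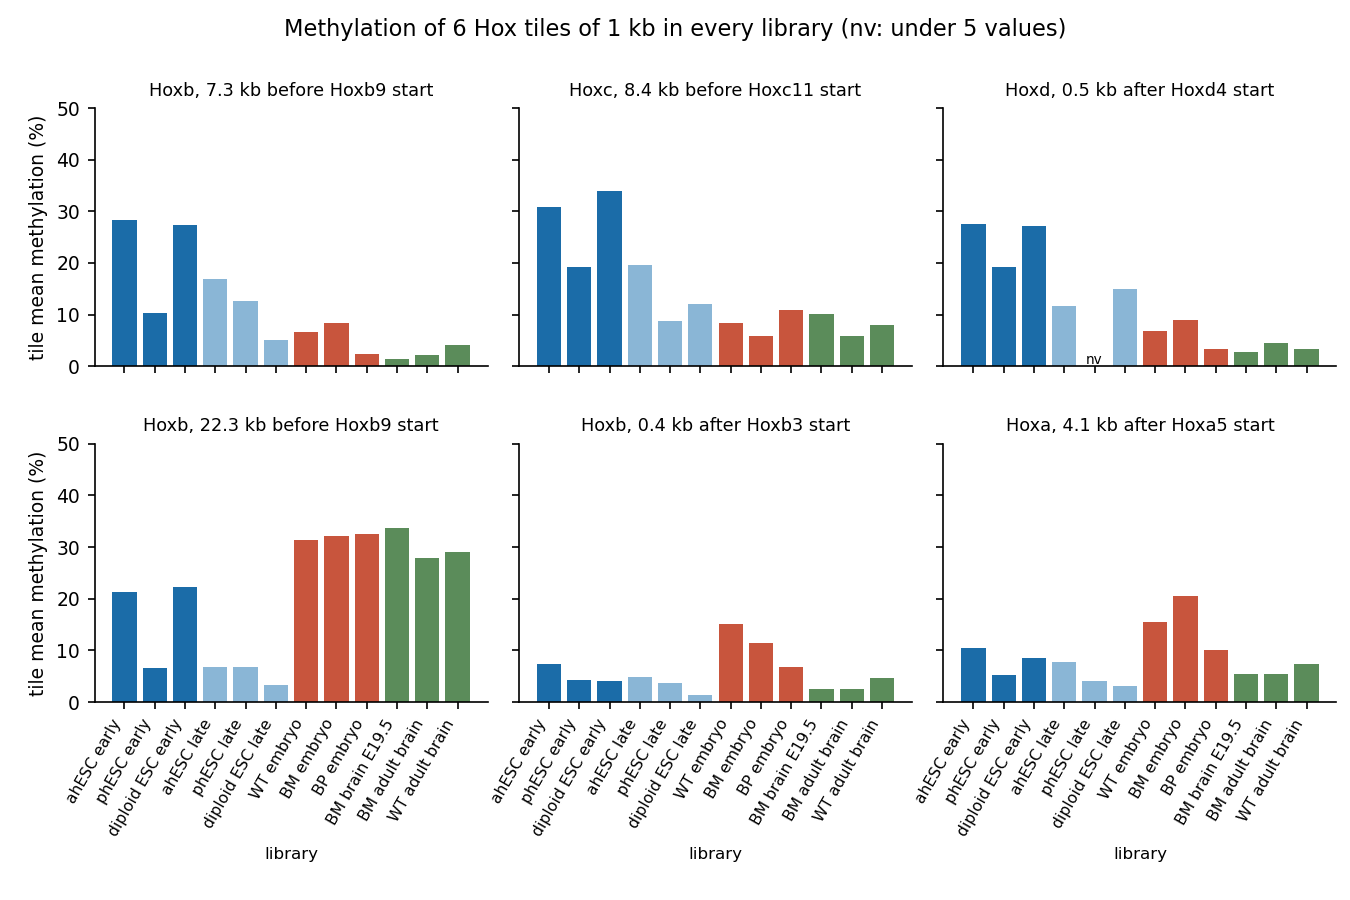
Mean methylation in percent (vertical axes) of 6 Hox tiles of 1 kb in each of the 12 libraries (horizontal axes); nv marks a library with under 5 values. The tile before Hoxc11 is at 19.3 to 34.0% in early ESCs and 5.78 to 10.9% in embryos, while the tile 22.3 kb before Hoxb9 is at 31.3 to 32.5% in all 3 embryos.

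Another group of tiles was higher in embryos than in brains, without passing 10 points in the mean of the kinds. Of 179 tiles measured in embryos and brains, 47 had each brain above each embryo (against 24.7% of all tiles) and 20 had each brain below (against 5.13% of all tiles). The lower count was 50 without the BP embryo and 33 without the adult WT brain. The tile with the widest gap, chr2:74566001-74567000, in exons of Hoxd4 and Gm28230, stood at 14.5, 15.8 and 10.7% in WT, BM and BP embryos and 3.79, 3.75 and 5.37% in the BM E19.5, BM adult and WT adult brains. In the Hoxa3 exon tile chr6:52150001-52151000 the embryos stood at 15.53, 20.5 and 10.1% and the brains at 5.51, 5.32 and 7.31%. In the Hoxd9 tile chr2:74538001-74539000 they stood at 13.01, 16.5 and 7.41% and at 3.04, 3.23 and 4.86%, and in the Hoxb3 tile chr11:96205001-96206000 at 15.1, 11.4 and 6.78% and at 2.50, 2.55 and 4.62%. In these 4 tiles the BP embryo was the lowest embryo. By the way the 20 tiles were counted, each embryo lay above each brain. ESC libraries stood at 3.56 to 17.7%, 3.01 to 10.5%, 4.96 to 8.69% and 1.39 to 7.41% in the 4 tiles in the same order, and the highest of them lay above the BP embryo in each. Between the WT embryo and the adult WT brain, which cross the library sets, 3 of 206 tiles were lower by 10 points or more (1.92% of all tiles) and none higher (2.71%). The 3 were chr6:52152001-52153000 in a Hoxa5 exon (15.51 and 2.63% over 7 cytosines measured in both), the Hoxb3 tile (16.7 and 4.66%) and the Hoxd9 tile (15.7 and 4.95%).

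Late diploid ESCs had lower Hox methylation than early ones. In late ahESCs single tiles were lower by 10 points or more, and over all listed cytosines more tiles were higher than lower. The ahESC mean at CpG cytosines outside CCGG was lower at late passage. At cytosines measured in both libraries, the mean went from 3.74% in early to 1.71% in late ESCs, while the other cytosines went from 11.8 to 5.27%. By 10 points or more, 33 of 233 Hox tiles were lower and none higher, against 47% and 0.0267% of all tiles. The widest was chr11:96109001-96110000 (32.8 and 6.86%), then the tile before Hoxc11 (34.0 and 10.02% at shared cytosines) and chr2:74544001-74545000 in a Hoxd8 exon (27.7 and 4.94%). In ahESCs, 22 of 212 tiles were lower and 1 higher (30.2% and 0.0471% of all tiles; the latter chr6:52211001-52212000, 0.63 kb before the Hoxa13 start, at 0.87 and 12.8% over 5 cytosines), and by any amount 120 were higher and 92 lower, with a median of 0.38 points against −5.69 over all tiles (23.5% higher and 76.5% lower of all tiles). The mean at shared cytosines went from 4.24 to 3.76%, with Hoxa at 3.35 and 3.38%, or from 4.71 to 3.01% at CpG cytosines outside CCGG. In the latter setting Hoxa, Hoxb, Hoxc and Hoxd changed by −1.73, −2.45, −0.54 and −1.53 points. Cytosines of GC outside CG stood at 0.49% in early and 1.00% in late ahESCs, and their part in the tile counts was not tested. The widest tile difference in ahESCs was at the Gm53 tile, with 40.3 and 16.2% over the 33 cytosines measured in both. In phESCs no tile of 189 passed 10 points either way (1.99% lower and 0.194% higher of all tiles), with means of 1.89 and 1.82%. Both late haploid libraries are of the second set and both early ones of the first, so passage and library set cannot be told apart there; the 2 diploid ones belong to the first set. Over the 3 cell types the cluster means were lower by 0.68 (Hoxa) to 1.45 points (Hoxb) at late passage, and with 1 library left out by 0.26 to 1.23 (Hoxa) and 0.75 to 2.01 points (Hoxb) (exact sign-flip permutation test over 3 pairs, adjusted p = 0.5 for each). Of 197 tiles measured in all 6 libraries, 26 had each late library below each early one and none above (38.6% and 0.363% of all tiles), a comparison added after the data were seen; the lower count was 118 without late ahESCs and 56 without early phESCs. The higher count was 13 without late ESCs, 6 without late phESCs and 1 without early phESCs.

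Among early ESCs the maternal haploid line stood lower than the diploid line at the methylated Hox tiles, and the paternal one did not. By 10 points or more, 13 of 236 tiles were lower in phESCs and none higher, against 27.4% and 0.0711% of all tiles. The Hoxb tiles led, with chr11:96109001-96110000 at 32.8% in ESCs and 8.97% in phESCs and the Gm53 tile at 27.3 and 10.3%. The Hox mean at shared cytosines was 3.78% in ESCs and 2.995% in phESCs, and that of the other cytosines 12.04 and 7.63%. In ahESCs no tile of 231 passed 10 points (0.269% higher and 0.287% lower of all tiles), but 181 tiles stood higher (37.4% of all tiles) and 50 stood lower (62.5% of all), the median being 0.52 points against −0.31 over all tiles, and the Hox mean at shared cytosines was 4.38% against 3.68% in ESCs. The widest was chr15:102795001-102796000, 1.73 kb before the Hoxc10 start (25.01 and 15.7%). These comparisons are of single libraries, with no replicate check, and they share the diploid library.

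In embryos the BM library stood close to the WT library in the Hox clusters and the BP library stood below it. No tile passed 10 points in either comparison: of 223 tiles for BM (0.971% higher and 0.0903% lower of all tiles) and of 212 for BP (0.934% and 0.216%). In BP 180 tiles were lower (50.4% of all tiles) and 31 higher (49.2% of all) than in WT, with a median of −0.81 points against −0.012 over all tiles; in BM 103 were lower (43.1% of all) and 119 higher (56.5% of all). At cytosines measured in both, the Hox mean was 3.31% in WT and 2.16% in BP, or 4.60 and 2.59% at CpG cytosines outside CCGG, while the other cytosines stood at 13.9 and 14.1%. The widest BP differences were in the Hoxb9 tile chr11:96135001-96136000 (13% in WT and 4.38% in BP, over 5 cytosines), in chr11:96201001-96202000 before Hoxb3 (15.8 and 7.46%) and in the Hoxd9 tile named above (15.3 and 7.41% at shared cytosines). All 3 embryos are of the first set, and the BP library had the fewest cytosines of the 12. The comparison describes 1 BP library and has no replicate check.

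In adult brains, both of the second set, the BM library was lower than the WT library at 194 of 215 Hox tiles (75% of all tiles) and higher at 21 (25% of all), with a median of −1.02 points against −0.70 over all tiles. None passed 10 points (0.0581% higher and 0.153% lower of all tiles). The Hox mean at shared cytosines was 3.94% in WT and 2.81% in BM, and that of the other cytosines 16.4 and 15.8%. Cytosines of GC outside CG stood at 0.83% in the WT and 0.49% in the BM library, and the part of this in the difference was not tested. The leading tiles lie at Hoxb3 and Hoxa5: chr11:96206001-96207000, in exons of Hoxb3 and of its antisense gene Hoxb3os, stood at 11.5 and 4.93%, and chr6:52153001-52154000, in a Hoxa5 exon, at 7.11 and 1.12%. From the E19.5 to the adult BM brain no tile of 173 passed 10 points (0.223% higher and 5.41% lower of all tiles); these libraries are of different sets.

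Embryos were also set beside the ESCs that correspond to them. From early diploid ESCs to the WT embryo 2 of 229 tiles were higher and 19 lower (7.63% and 2.71% of all tiles), led by the tile before Hoxc11 and the Hoxd8 exon tile (27.7 and 6.40%). The 2 higher ones were chr11:96109001-96110000 (32.8 and 43.8%) and the Hoxa5 exon tile chr6:52152001-52153000 (6.69 and 16.9%). From early ahESCs to the BP embryo 2 of 212 were higher and 30 lower (8.82% and 1.46% of all tiles), led by the Hoxb9 tile (32.9 and 4.38%), the Gm53 tile (28.3 and 2.46% at shared cytosines) and the tile 2.27 kb before Hoxb9 (27.04 and 2.41%). The Hoxb9 tile rested on 5 cytosines in the comparison of the WT and BP embryos above. The 2 higher ones were the Gm11539 tiles (30.4 and 42.2%, and 21.4 and 32.5%). From early phESCs to the BM embryo 8 of 226 were higher and 2 lower (37.8% and 0.149% of all tiles), led by the Gm11539 tiles (8.97 and 41.1%, and 6.66 and 33.0%). The 2 lower ones were the Hoxd4 start tile (19.2 and 9.03%) and chr6:52177001-52178000 at the Hoxa9 start (14.5 and 2.81% over 8 cytosines). Tiles behind a count of 5 or fewer that are not among the widest differences were named after their values were seen. The Hox mean at shared cytosines went from 4.03 to 2.15% in the paternal pair and from 2.88 to 3.47% in the maternal pair, while the other cytosines went from 12.3 to 14.2% and from 7.49 to 13.6%. The labels do not say that the haploid cells sequenced were the cells injected, and the ESCs are labelled WT while both embryos are knockouts.

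Within the clusters, the mean of each kind of library was lowest within 1 kb of the gene starts. The setting of CpG cytosines outside CCGG reads only placed exons and RefSeq promoters, where the context of a cytosine is known. Over 10 kb from a start it kept 186 to 240 cytosines per library, against 1179 to 1720 over all listed cytosines. At CpG cytosines outside CCGG, a setting chosen after the data were seen, the means within 1 kb of a placed start were 1.96% ± 0.21 (SD, n = 3) in early ESCs, 1.42% ± 0.54 in late ESCs, 1.92% ± 0.59 in embryos and 2.62% ± 0.68 in brains. At 2 to 5 kb they were 10.9% ± 3.34, 6.08% ± 1.45, 9.95% ± 3.21 and 6.10% ± 1.44. At 5 to 10 kb early ESCs had 8.85% ± 3.21 and embryos 6.16% ± 2.45, while over 10 kb early ESCs had 6.66% ± 1.49 and embryos 11.2% ± 2.90. Brains stood lowest of the kinds at 5 to 10 kb (3.02% ± 0.33). The spreads of early ESCs and embryos overlapped at 5 to 10 kb, whereas over 10 kb the lowest embryo (7.96%) lay above the highest early ESC library (7.57%). Over all listed cytosines this separation was absent: over 10 kb early ESCs had 5.63% (4.33 to 6.63%) and embryos 5.77% (4.43 to 6.53%).

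**Figure D5:**
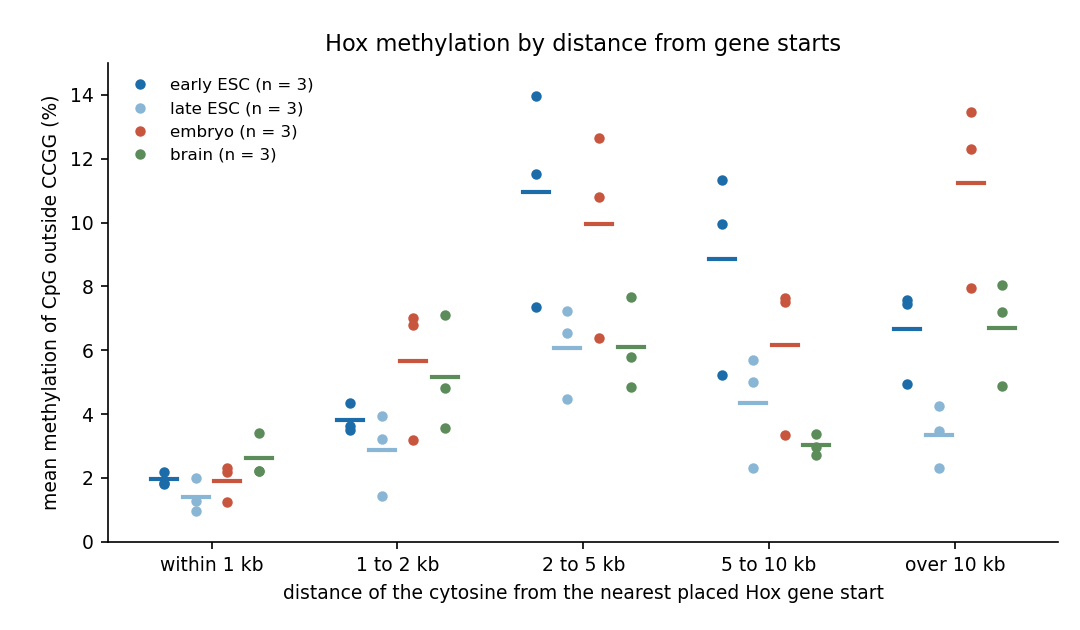
Mean methylation in percent of CpG cytosines outside CCGG (vertical axis) by distance from the nearest placed Hox gene start (horizontal axis), for each library (points) and each kind of library (bars, mean of n = 3). Only cytosines in placed exons and RefSeq promoters are included. Means lie near 2% within 1 kb and reach 10.9% in early ESCs at 2 to 5 kb and 11.2% in embryos over 10 kb.

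Apart from Cdx1, Cdx4, Kdm6b and Evx1, the measured promoters of other genes of the Hox pathway stayed under 5% in every library. Of 9 TALE cofactors, which bind DNA together with Hox proteins, Pbx3 was above in each embryo against each early ESC library (0.96 and 0.83%), Pknox2 below (1.19 and 2.09%) and 7 overlapped. Among the upstream regulators, which switch Hox genes on or carry retinoic acid signals, Cdx1 was above (4.11 and 1.13%) and Cyp26a1, which breaks down retinoic acid, was below (1.11 and 4.04%). Cdx4, which lies on the X chromosome and overlapped, stood at 1.31 to 3.62% in early ESCs, at 2.39, 17.8 and 5.64% in WT, BM and BP embryos and at 15.01 to 24.2% in brains. Of the Polycomb genes, 13 were measured and none separated. Of 5 Trithorax and demethylase genes, Kmt2b (1.08 and 0.88%) and Kdm6b, which removes the Polycomb histone mark, were above. Kdm6b stood at 17.4, 8.94 and 14.9% in early ahESCs, phESCs and ESCs and at 42.0, 41.2 and 39.0% in WT, BM and BP embryos, the widest gap among these lists. Of 5 ParaHox and flanking homeobox genes none separated, and Evx2 was not measured; Evx1, next to Hoxa13, had means of 5.91% in early ESCs and 2.45% in embryos. Over all promoters 21.3% were above and 7.57% below in this comparison.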

How the data were processed

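Reduced representation bisulfite libraries of 12 groups were deposited as 1 table of methylation percentages per cytosine, without coverage. Per the submitters' processing notes, Trim Galore, Bismark 0.13.1 and the mm9 build were used. The deposited percent values run from 0 to 100 with missing entries, and no read count, interval or floor could be given.

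From these values the mean of all listed cytosines was computed per cluster, per 1 kb tile (at least 5 cytosines) and per promoter. With no mm9 annotation at hand, exons and starts of the GRCm38 annotation and RefSeq promoters were placed on mm9 where 8 or more listed positions matched exactly. In all, 86494 pieces found a place, and 90656 held 8 or more listed positions at the best-scoring shift. At 1 wrong shift per piece, 2017 bp past the best-scoring one, 3 of 31431 pieces matched. The search itself tried several shifts per piece, so this does not give its rate of false placement. The placed pieces gave 18614 gene starts and the context of 2508037 listed positions, all of them within placed exons or RefSeq promoters. Libraries were joined by kind and compared with exact permutation or sign-flip tests (SciPy 1.17.1), adjusted by Benjamini-Hochberg over the 4 clusters or 6 pairs of clusters. Tile and promoter counts carry no test and stand beside the same share over all tiles or promoters. The scripts were tested on simulated data. Python 3.11.15, NumPy 2.4.6, pandas 2.3.3 and Matplotlib 3.10.9 were used.

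Members whose promoter reached 10% in a library are given in full, and tiles were taken from the 5 widest of each comparison; others were named after their values were seen. Alternatives covered the cytosines used, tile means, thresholds, minimum numbers of cytosines, promoter length and each library left out; those outside CCGG, in dense tiles, by library set, by distance, over exons and for early against late tiles were added after the data were seen. The members and lists (TALE cofactors, upstream regulators, Polycomb, Trithorax, ParaHox and label markers) were chosen with earlier results of these data known. Of the other label markers, in early ESCs against embryos, none of 2 fibroblast genes separated (1 not measured), none of 2 trophoblast genes, 1 of 4 brain genes was above in embryos (1 not measured), and none of 6 maternally methylated imprints separated (3 not measured). Some results of these lists are not reported here.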

Additional observations from a re-analysis of the deposited data

Results flagged for a closer look

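At the Hoxa9 promoter the adult BM brain lay far from the other embryos and brains. It stood at 16.6%, and the other 5 libraries at 3.92 to 7.63%. Its gap to the nearest library was 0.708 of the range of the 6, past the 95% limit of Dixon's test. Only 5 cytosines of this promoter were measured in the adult BM brain. Chance alone puts about 1 in 20 groups past this limit.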

How the results depend on the processing

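Read depth is unknown, so the counting error behind each percentage is unknown too. No fit with a replicate block was possible because the labels carry no replicate numbers; passage was paired by cell type and clusters by library in the tests themselves. The position of each cluster below the other cytosines, and the wider gap in embryos and brains, kept direction and threshold under every alternative but 1. The wider gap includes the shift of the other cytosines, which the 4 clusters share. Within the second library set, whose 4 libraries cannot reach the threshold, the gaps were −8.18, −7.54, −7.99 and −8.46 points for Hoxa, Hoxb, Hoxc and Hoxd and −8.07 over all 4. The changes of the gap there were −9.02, −9.31, −10.2 and −9.77 and −9.54 over all 4, and the cluster differences were −0.634 (Hoxa minus Hoxb), 0.444 (Hoxb minus Hoxc), 0.912 (Hoxb minus Hoxd) and 0.468 (Hoxc minus Hoxd), with Hoxa minus Hoxd turned to 0.278. The means at late passage stayed lower under the alternatives run, with ranges of −1.23 to −0.258 (Hoxa), −2.01 to −0.751 (Hoxb), −1.64 to −0.447 (Hoxc) and −1.68 to −0.770 points (Hoxd) with 1 library left out. Promoter counts were 7 above and 4 below (embryos against early ESCs) and 19 above (brains against embryos) from 500 bp before to 500 bp after the start, and 5, 4 and 17 with at least 10 cytosines. Causes of the turns below were not tested.

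The settings outside CCGG and over known CpG keep only cytosines in placed exons and RefSeq promoters. Differences of cluster means between kinds of library, none past the threshold, turned sign under several settings. For embryos and brains minus ESCs they became, over CpG cytosines outside CCGG, 1.16 (Hoxc), 0.0912 (Hoxd) and 0.643 (all 4 clusters); over known CpG, 1.11 (Hoxc) and 0.451 (all 4); over positions with a value in all 12 libraries, 0.0986 (Hoxc) and 0.208 (all 4). Over cytosines that reached 20% in a library they were −0.761 (Hoxa) and −2.76 (Hoxb), over tile means −0.421 (Hoxa), without late ESCs −0.0810 (Hoxa) and −0.675 (Hoxb), in the first library set −0.142 (Hoxb) and in the second 0.208 (all 4). For embryos minus early ESCs they became 0.397 (Hoxa), 1.15 (Hoxc) and 0.111 (all 4) outside CCGG, and 0.300 (Hoxa) over positions in all 12 libraries. For brains minus embryos they became −0.293 (Hoxa), −0.257 (Hoxc) and −0.554 (all 4) outside CCGG, −2.74, −2.26 and −3.84 over cytosines that reached 20%, −0.155 (Hoxa) and −0.227 (all 4) over tile means, and −0.0830 (Hoxc) and −0.0370 (all 4) over positions in all 12.

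Between clusters, Hoxa minus Hoxc became 1.43 outside CCGG and 0.0465 over positions in all 12 libraries, and passed the threshold at −3.83 over cytosines that reached 20% and at −0.462 in the first set. Hoxa minus Hoxd became 1.03 and 0.0187 in the first 2 of these settings and passed the threshold at −1.04 over tile means. Hoxc minus Hoxd turned to −0.397, −0.0278 and −0.508 (outside CCGG, all 12, tile means), and Hoxb minus Hoxd missed the threshold at 0.611 over tile means.

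With 1 library left out in turn, embryos and brains minus ESCs ran from 0.0204 to 0.501 (Hoxa), −0.305 to 0.375 (Hoxb), −0.936 to −0.273 (Hoxc), −0.648 to −0.159 (Hoxd) and −0.434 to 0.110 (all 4). Embryos minus early ESCs ran from −0.501 to 0.153 (Hoxa), −1.23 to −0.164 (Hoxb), −1.60 to −0.655 (Hoxc), −1.15 to −0.400 (Hoxd) and −1.05 to −0.245 (all 4), and brains minus embryos from −0.144 to 0.732, −0.642 to 0.143, −0.418 to 0.247, −0.637 to 0.108 and −0.416 to 0.297 in the same order. Hoxa minus Hoxc ran from −0.476 to −0.272 and Hoxa minus Hoxd from −0.129 to 0.00979. Counts of tiles that separated ran from 1 to 20 higher and 2 to 8 lower in embryos and brains against ESCs, 30 to 61 and 54 to 75 in embryos against early ESCs, 47 to 65 and 20 to 50 in brains against embryos, and 0 to 13 and 26 to 118 at late against early passage.

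With at least 10 points between the means, 1 separated tile was higher and 1 lower in embryos and brains against ESCs. There were 2 higher and 14 lower in embryos against early ESCs, and 0 in either direction in brains against embryos. At late against early passage 0 were higher and 6 lower. Over positions measured in all libraries, 7 were higher and 5 lower in embryos and brains against ESCs. Tiles that differed between 2 libraries by 10 points or more in either direction numbered 23, 0 and 33 for passage in ahESCs, phESCs and ESCs, 0 and 13 for early ahESCs and phESCs against ESCs, 0 for BM and BP embryos against WT, BM against WT adult brain and BM adult against E19.5 brain, 21 for WT embryo against ESCs, 3 for adult WT brain against WT embryo, and 10 and 32 for BM embryo against phESCs and BP embryo against ahESCs. At 5 points the counts that moved were 40, 3 and 57, then 8 and 37, then 6, 16, 10 and 5, then 53, 20 and 33 (BM embryo), in the same order. At 25 points they were 0 (ahESC passage), 1 (ESC passage), 0 (phESCs against ESCs), 0 (WT embryo), 0 (adult WT brain) and 2 each for the BM and BP embryos. Over cytosines that reached 20% outside the pair they were 48, 5, 67, 10, 44, 8, 18, 2, 6, 64, 29, 44 and 50.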
